A study of Mus musculus with 6 samples.

Results

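Chromatin accessibility was examined at the genes of 8 effector cytokines of T cells, Il10, Il24, Il9, Il22, Csf2, Il3, Tnf and Lta. The peaks of 3 lists were merged where they shared at least 1 bp, and a merged region belonged to a gene when it overlapped the gene's RefSeq body (GRCm38) extended by 50 kb on each side. This rule gave 78 of the 81315 regions in all, at 8 of 21900 protein-coding genes. Because neighbouring genes share windows, the 8 genes form 6 loci: Il10 and Il24 lie on chromosome 1 with separate windows, Csf2 and Il3 share 8 of their 11 regions on chromosome 11, and Tnf and Lta share 28 of their 30 regions on chromosome 17.

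The data come from ATAC-seq, in which the Tn5 transposase cuts accessible DNA, in CD4 T cells of wildtype C57BL/6 mice. The first group held untreated naive cells, which have not met antigen. The other groups held cells grown from naive cells for 48 h or 72 h with 0.25 μg/mL anti-CD3ε, 1 μg/mL anti-CD28, 0.1 ng/mL TGF-β and 20 ng/mL IL-6, conditions that give Th17 cells in culture. Each group has 2 libraries and 1 peak list, so no difference between lists has a replicate check and no p-value is given. Time in culture, activation through the T cell receptor and the added cytokines differ together between naive and cultured cells and cannot be told apart. Between a pair of lists, gained regions are those found only in the later list and lost regions those found only in the earlier; a peak that is missing from a list did not pass the authors' calling, which does not show closed chromatin.

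Activated helper T cells signal to other cells through secreted cytokines, and each helper subset opens the regulatory DNA of its own set. IL-10 restrains immune responses and is made by several helper subsets, Th17 cells grown with TGF-β and IL-6 among them. IL-22 and IL-24 belong to the IL-10 family and act mainly on epithelial cells. IL-9, GM-CSF (encoded by Csf2) and IL-3 act on blood cells such as mast cells, macrophages, granulocytes and basophils. TNF and lymphotoxin-α (encoded by Lta) are inflammatory members of the TNF family, and their genes lie side by side with Ltb, which encodes the partner chain lymphotoxin-β, within the major histocompatibility complex.

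Promoter sequence was available for 6 of the 8 genes (Il9, Il22, Csf2, Il3, Tnf and Lta) in a RefSeq table of GRCm38.p6. The first sequence below is the whole merged region at the Tnf promoter, the only member promoter with a peak in all 3 lists. It is followed by the 250 bases upstream of the start of Csf2, Il3 and Il9, which held no peak in any list, for contrast. All are written 5′ to 3′ on the strand of the gene, which is the minus strand for each of them, and capitals mark motif letters found on either strand. Their positions are chr17:35202012-35202210 for Tnf, chr11:54249900-54250149 for Csf2, chr11:54267280-54267529 for Il3 and chr13:56482258-56482507 for Il9.
Tnf region: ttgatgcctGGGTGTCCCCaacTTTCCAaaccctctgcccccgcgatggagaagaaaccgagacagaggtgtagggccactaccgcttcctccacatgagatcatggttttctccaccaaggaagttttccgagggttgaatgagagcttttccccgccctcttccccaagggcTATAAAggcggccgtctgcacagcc
Csf2 promoter: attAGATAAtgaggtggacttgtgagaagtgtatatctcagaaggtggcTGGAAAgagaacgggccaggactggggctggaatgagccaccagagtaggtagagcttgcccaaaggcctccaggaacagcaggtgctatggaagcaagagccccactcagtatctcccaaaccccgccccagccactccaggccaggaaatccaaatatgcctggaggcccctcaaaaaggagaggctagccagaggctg
Il3 promoter: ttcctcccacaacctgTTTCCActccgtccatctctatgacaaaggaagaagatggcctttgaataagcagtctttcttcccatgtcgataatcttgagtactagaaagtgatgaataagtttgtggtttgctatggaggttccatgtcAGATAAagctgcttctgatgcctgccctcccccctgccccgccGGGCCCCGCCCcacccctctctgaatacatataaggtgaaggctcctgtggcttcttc
Il9 promoter: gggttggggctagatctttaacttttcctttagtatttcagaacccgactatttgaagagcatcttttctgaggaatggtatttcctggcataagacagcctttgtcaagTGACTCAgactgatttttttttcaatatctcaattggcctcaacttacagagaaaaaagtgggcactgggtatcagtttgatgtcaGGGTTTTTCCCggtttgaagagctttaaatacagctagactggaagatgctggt

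The motifs were searched on both strands of the 250 bases upstream of each start in the table, which for Il22 and Lta lies inside the RefSeq gene body, and the same search was made in all 32817 promoter windows. The NFAT letters TGGAAA stood in 4 of the 6 members (Il22, Csf2, Il3 and Tnf), beside 18.6% of all promoters. The GATA letters AGATAA stood in 3 (Il22, Csf2 and Il3), beside 9.99%, and the TATA box letters TATAAA in 3 (Il22, Tnf and Lta), beside 12.4%. The NF-κB pattern, GGG and CC with 5 free bases between them, stood in 4 (Il9, Il3, Tnf and Lta), but 45.8% of all promoters hold it. The AP-1 letters TGANTCA stood in Il9 alone, beginning 140 bases upstream of the start, beside 6.75% of all promoters, and the STAT letters TTCNNNGAA in Lta alone, beside 7.01%. None of the 6 held the CRE letters TGACGTCA (1.55% of all promoters), the ROR letters AGGTCA (14.0%), the MAF letters TGCTGAC (3.81%), the IRF pattern of GAAA repeated after 2 free bases (2.97%), or the BATF-IRF composite, which contains the AP-1 letters (0.0975%). A match is a stretch of letters and does not show that a factor binds there.

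The count of regions differed most at Il10, Tnf and Lta. Il10 had 4 regions in naive cells, 10 at 48 h and 12 at 72 h. Tnf had 25, 15 and 22 regions and Lta 26, 16 and 22. Of the other genes, Il24 had 4, 3 and 6, Il9 had 5, 4 and 7, Il22 had 1, 1 and 3, Csf2 had 5, 7 and 6, and Il3 had 7, 6 and 6. The median over all protein-coding genes was 5 regions in naive cells, 4 at 48 h and 5 at 72 h.

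**Figure D1:**
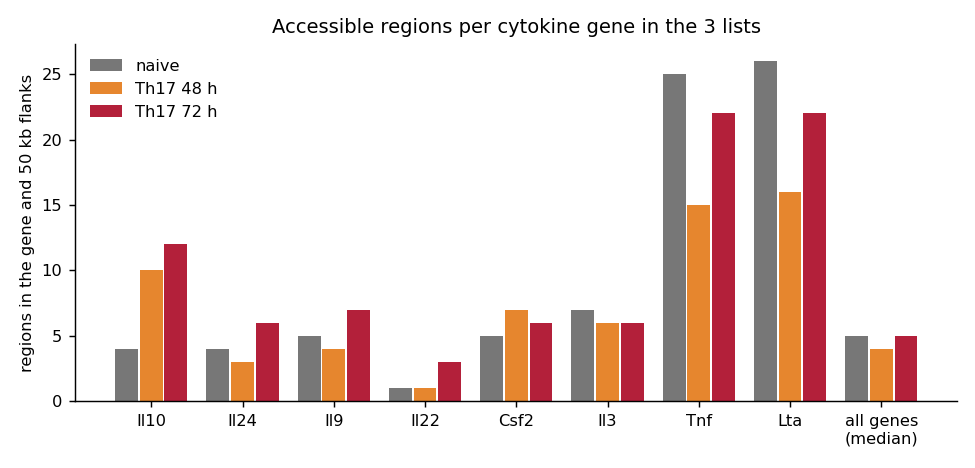
Bars give the number of merged regions in each gene and its 50 kb flanks (vertical axis) in the naive, Th17 48 h and Th17 72 h lists, for the 8 cytokine genes and, at the right, the median of all 21900 protein-coding genes. Il10 stands at 4, 10 and 12 regions. Tnf and Lta have the most regions of the 8 genes in every list. Each has its own highest count in naive cells and its lowest at 48 h.

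Over the 8 genes together, gained and lost shares were compared with those of all regions. From naive cells to 48 h, 17 of the 64 regions in either list were gained (26.6%, exact Clopper-Pearson 95% interval 16.3 to 39.1%), beside 21.9% of all regions, and 23 were lost (35.9%, 24.3 to 48.9%), beside 43.7%. From naive cells to 72 h, 27 of 74 were gained (36.5%, 25.6 to 48.5%), beside 33.0%, and 17 were lost (23.0%, 14.0 to 34.2%), beside 33.0%. Each of these intervals contains the share over all regions, so no difference was resolved at this number of regions, which does not show that the shares are equal. The intervals cover counting error only, and regions of 1 locus are not independent.

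The genes differed among themselves in direction. At 48 h, 2 of the 8 genes, Il10 and Csf2, had more regions than in naive cells, beside 17.7% of all protein-coding genes. At 72 h, 5 of the 8, Il10, Il24, Il9, Il22 and Csf2, had more, beside 33.7%. These shares, here and below, count all 21900 genes, of which 18222 had a region in some list. A gene without a region cannot have more, whereas all 8 cytokine genes had regions. The median net change over the 8 genes was -1 region at 48 h and 1.5 at 72 h, and over all protein-coding genes it was -1 and 0. The 48 h and 72 h counts share their naive reference, and a naive peak that was missed enters both.

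**Figure D2:**
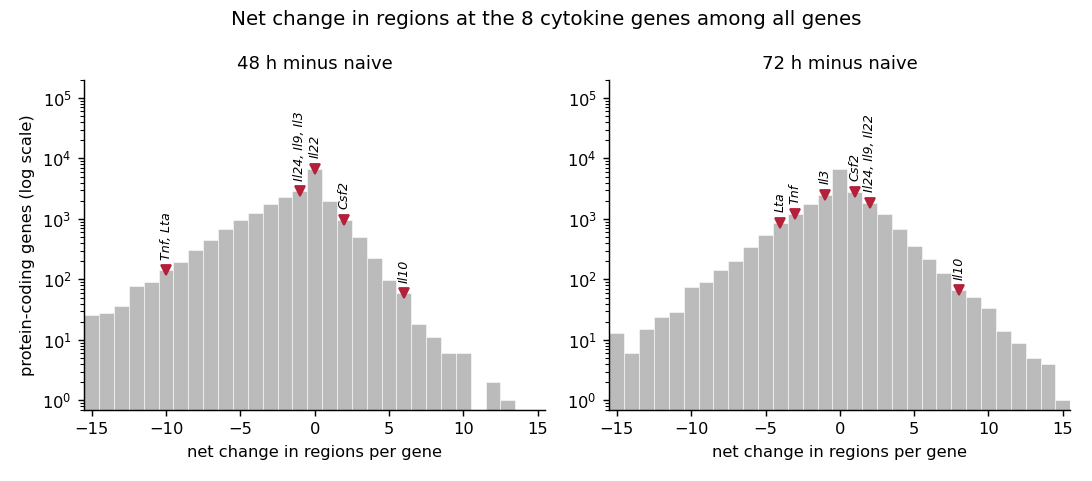
Grey bars count all protein-coding genes (vertical axis, log scale) by their net change in regions from naive cells to 48 h (left) and to 72 h (right), over net changes of -15 to 15; red marks show where the 8 cytokine genes fall. Il10 lies in the upper tail of both panels, at 6 and 8, and Tnf and Lta in the lower tail at 48 h, at -10 each.

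Il10, on chromosome 1 from 131019845 to 131024970, had most of its regions in the cultured cells only. It gained 7 regions and lost 1 at 48 h, and gained 11 and lost 3 at 72 h. A net change as large or larger was found at 0.470% of protein-coding genes at 48 h and at 0.886% at 72 h. The peaks covered 847 bp in naive cells, 2835 bp at 48 h and 3001 bp at 72 h. The nearest of the 4 naive regions lay 25655 bp from the gene.

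Of the 15 Il10 regions, 7 were in both culture lists but not the naive one. One of them lay inside the gene, at 131022610 to 131023052, with a score of 84 at 48 h and 56 at 72 h; the score is the authors' own value, has no stated scale and is read within 1 list only. The 2 with the highest 72 h scores flanked the gene. The region from 131010550 to 131010834, which lay 9011 bp below the gene's lower end, had a 72 h score of 178, higher than 83.6% of the peaks of that list. The region from 131038130 to 131038603, 13160 bp beyond the upper end, had a 72 h score of 171, higher than 82.4%.

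The other 4 of these regions lay together below the gene: from 130987668 to 130987778, from 130996372 to 130996676, from 130999033 to 130999259 and from 130999651 to 130999937. Their 72 h scores were lower, at 43, 74, 50 and 67. In the same stretch, the region from 130993698 to 130994190, 25655 bp from the gene, was the only Il10 region in all 3 lists. Its peak was 130 bp wide in naive cells, 479 bp at 48 h and 470 bp at 72 h, and its 72 h score was 168. A cluster of 5 regions thus lay 19908 to 32067 bp below the gene at both culture times, where the naive list had 1 narrow peak.

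At 72 h only, 4 further regions were present near Il10, with scores of 46 to 66. The closest, from 131025917 to 131026158, lay 947 bp from the gene. The regions from 131053315 to 131053512 and from 131060321 to 131060721, the second inside Mapkapk2, which encodes a stress-activated kinase, were in the naive and 48 h lists and not in the 72 h list. The naive peak of the second was 401 bp wide, the widest of the locus. With equal numbers of peaks per list, the net change at Il10 was 8 at 48 h and 6 at 72 h. The 48 h list is the shortest and keeps all its peaks in that setting, which favours a higher net at 48 h by construction. With flanks of 100 kb the net change at 48 h was -1. It was also -1 at 72 h when only the cultured lists were limited to scores at or above their median.

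**Figure D3:**
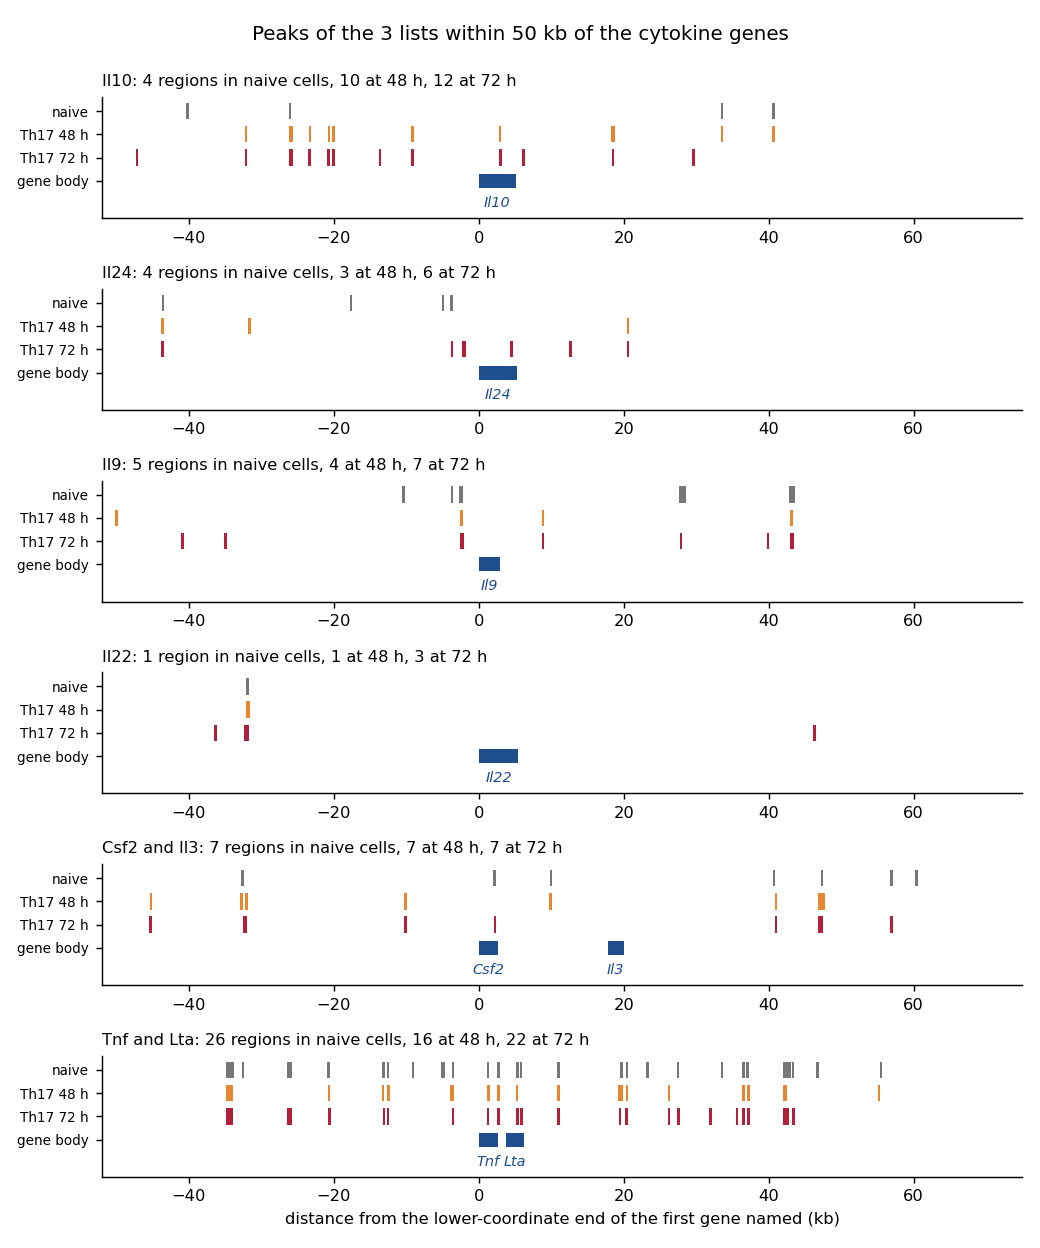
Each panel shows 1 locus, with the peaks of the 3 lists as bars and the gene bodies in blue, against the distance in kb from the lower-coordinate end of the first gene named; peaks narrower than 350 bp are drawn 350 bp wide so that they can be seen. At Il10 the 48 h and 72 h rows hold a cluster below the gene, where the naive row has 1 peak. They also hold bars on the gene and next beyond it, where the naive row is empty. Farther beyond, 2 naive bars stand with 48 h bars. At Tnf and Lta many bars stand in the same place in all 3 rows.

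Il24, on chromosome 1 from 130882074 to 130887411, had no region in the gene in naive cells or at 48 h and 1 at 72 h. That region, from 130886431 to 130886825, had a score of 157, higher than 79.5% of the 72 h peaks and the highest of the locus. A region from 130879815 to 130880333, 1741 bp from Il24 and inside Fcmr, which encodes the receptor for the constant part of IgM, was also seen at 72 h only, with a width of 519 bp and a score of 107. Another 72 h region, from 130894658 to 130894850, had a score of 43. The gene thus had 4 gained and 2 lost regions at 72 h, and 2 gained and 3 lost at 48 h.

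The region from 130902489 to 130902796, between Il24 and Il20, was the only Il24 region in both culture lists but not the naive one, with scores of 127 and 120. The region from 130838366 to 130838573, inside Pigr, which encodes the epithelial transporter of IgA, was in all 3 lists, at widths of 125, 176 and 208 bp. The widest naive peak that did not recur was 215 bp, from 130864359 to 130864573. Il24 and Il10 share no region, so no region is counted for both, although both counts come from the same 3 lists.

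Il9, on chromosome 13 from 56479277 to 56482257, had no region in the gene or within 1 kb of it in any list. Its strongest region lay 2056 bp downstream of the gene, from 56476625 to 56477221, in all 3 lists. The peak was 499 bp wide in naive cells, 445 bp at 48 h and 472 bp at 72 h, and its 72 h score of 314 was the highest of all 78 regions and above 97.2% of the 72 h list. This region was therefore called before culture and at both later times.

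Upstream of Il9, the region from 56487957 to 56488278, at a distance of 5700 bp, was absent from naive cells and had scores of 53 at 48 h and 162 at 72 h. These scores exceeded 32.1% of the 48 h list and 80.6% of the 72 h list. A region farther upstream, from 56506923 to 56507811, was 889 bp wide in naive cells, absent at 48 h and 243 bp wide at 72 h with a score of 41; this was the widest naive peak of the locus. The region from 56522094 to 56522892 at the start of Fbxl21, which encodes an F-box protein, was in all 3 lists. In total Il9 gained 2 and lost 3 regions at 48 h, and gained 4 and lost 2 at 72 h.

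Il22, on chromosome 10 from 118204584 to 118210047, had the fewest regions of the 8 genes. None lay in the gene, and the nearest was 31554 bp away. The region from 118172258 to 118173030, upstream of the gene, was in all 3 lists, with widths of 395 bp in naive cells, 597 bp at 48 h and 672 bp at 72 h and a 72 h score of 150. The other 2 regions were in the 72 h list only, were 106 and 100 bp wide and had scores of 52 and 46. The first of them lay inside Mdm1, from 118168197 to 118168302. Both were below the median width of the list (239 bp), and without such narrow peaks the net change at Il22 was 0 at both times.

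Csf2 lies on chromosome 11 from 54247270 to 54249899, and Il3 in the same orientation from 54265085 to 54267279. Together they had 7 regions in each of the 3 lists, but with 4 gained and 4 lost at 48 h and 3 gained and 3 lost at 72 h. The region inside Csf2, from 54249331 to 54249658 near its 5′ end, was 212 bp wide in naive cells, absent at 48 h and 326 bp wide at 72 h with a score of 56. Its peaks stopped 242 bp or more short of the 250 bases printed above. Il3 had no region in the gene or within 1 kb in any list.

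The regions seen at both culture times and not in naive cells lay on either side of the pair. The region from 54236950 to 54237357, 9913 bp downstream of Csf2, had scores of 145 at 48 h and 119 at 72 h. The region from 54201940 to 54202180, 45090 bp downstream of Csf2, had scores of 92 and 94, and the region from 54288131 to 54288454, 20852 bp upstream of Il3, had 69 and 41. The last of these began 22 bp from the end of a naive-only region, from 54287917 to 54288109, so the pair counts as 1 gained and 1 lost region although the peaks nearly touch. Upstream of Il3 at 26765 bp, the region from 54294044 to 54294741 was in all 3 lists, with a naive peak of 139 bp and culture peaks of 630 and 672 bp. Its 72 h score of 203 was the highest of the locus.

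Another region in all 3 lists, from 54214368 to 54215287, joined 4 peaks. The naive peak ended at 54214841 and the 72 h peak began at 54214806, so they overlapped at their edges only; 1 of the 48 h peaks overlapped the naive peak and the other the 72 h peak. The region between the genes, from 54257112 to 54257316, was present in naive cells and at 48 h only. The widest naive peak, 452 bp, lay at the start of Acsl6, which encodes a fatty acid ligase, from 54303949 to 54304400, and was absent at 48 h and present at 72 h. The net change at Csf2 was 2 at 48 h and 1 at 72 h, but -1 and -2 when only the cultured lists were limited by score. At Il3 it was -1 at both times, but 2 at both with peaks of at least the median width.

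Tnf, on chromosome 17 from 35199367 to 35202007, and Lta, from 35203165 to 35205578, lie in a stretch dense with genes and regions. The locus had 26 regions in naive cells, 16 at 48 h and 22 at 72 h, and its peaks covered 8573, 4814 and 6883 bp. At 48 h, 2 regions were gained and 12 lost; at 72 h, 3 were gained and 7 lost. Of the 28 regions in the naive or 48 h list, 42.9% were lost, close to the 43.7% of all regions, and 7.14% were gained, beside 21.9%. The net change of -10 at each gene, below which 1.51% of protein-coding genes lay, was thus counted over far more naive regions than the median gene has. At 72 h the net change was -3 at Tnf and -4 at Lta, but 1 at each gene with equal numbers of peaks per list.

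The regions at the Tnf and Lta genes themselves were mostly in all 3 lists. The region at the Tnf promoter, printed above, began 5 bases upstream of the start and reached 203 bases upstream. Its peak was 102 bp wide in naive cells (35202032 to 35202133), 131 bp at 48 h (35202012 to 35202142, score 58) and 187 bp at 72 h (35202024 to 35202210, score 66). The TATA box letters, which begin 29 bases upstream and span 35202031 to 35202036, lay wholly within the 48 h and 72 h peaks. The naive peak covered all of these letters but 1 base. The NF-κB and NFAT letters, which begin 194 and 181 bases upstream, lay within the 72 h peak only.

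Inside Tnf, the region from 35200457 to 35200827 had peaks of 371 bp in naive cells, 213 bp at 48 h and 280 bp at 72 h, with a 72 h score of 132. Inside Lta, the region from 35204514 to 35204849 had peaks of 323, 257 and 221 bp. The region from 35205027 to 35205381, at the 5′ end of Lta, was 318 bp wide in naive cells, absent at 48 h and 233 bp wide at 72 h, with a score of 86. Upstream of both genes, the region from 35210108 to 35210635 was in all 3 lists, at widths of 453, 483 and 462 bp and a 72 h score of 191. No region in these genes or within 1 kb of them was seen in cultured cells only.

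Among the 7 naive-only regions of the locus, the widest lay at the start of Ltb. It spanned 35194107 to 35194712, was 606 bp wide, wider than 82.4% of naive peaks, and had no counterpart at 48 h or 72 h. A second Ltb region, from 35195403 to 35196014 in the gene, was in all 3 lists, at widths of 221, 612 and 207 bp. The other naive-only regions were 107 to 320 bp wide. The only region of the locus in both culture lists but not the naive one, from 35225492 to 35225756, lay inside Nfkbil1, which encodes a protein related to inhibitors of NF-κB, with a score of 53 at both times.

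The other regions in all 3 lists lay in or between genes next to Tnf and Lta. The one with the highest 72 h score of the locus, 205, spanned 35164486 to 35165552 at the start of Prrc2a, and the widest naive peak, 1038 bp, lay at the start of Ddx39b, which encodes an RNA helicase, from 35241343 to 35242409. Pairs lay in Lst1 (35186045 to 35186466 and 35186704 to 35187008), where the starts of Nfkbil1 and Atp6v1g2 meet (35235702 to 35236117 and 35236205 to 35236697) and below Nfkbil1 (35218689 to 35219198 and 35219594 to 35219982), and 1 region lay between Aif1 and Lst1 (35178629 to 35178861). Many regions counted for Tnf and Lta are thus at other genes.

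In the genes or within 1 kb of them, Il10, Il24 and Csf2 differed between lists in whether they had a region. In naive cells, 3 of the 8 genes (Csf2, Tnf and Lta) had a region in the gene or within 1 kb, beside 62.6% of all protein-coding genes. At 48 h the genes were Il10, Tnf and Lta (3 of 8, beside 62.8%), and at 72 h Il10, Il24, Csf2, Tnf and Lta (5 of 8, beside 66.8%). The 8 genes are 2195 to 5464 bp long, and the part of gene length in these shares was not tested. Of the 6 member promoter windows in the RefSeq table (250 bases before to 50 after the start), 2 held a peak in naive cells, 1 at 48 h and 2 at 72 h, beside 37.0%, 35.3% and 38.2% of all windows. They were those of Tnf in every list and of Lta in naive cells and at 72 h.

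Of the 21 regions in all 3 lists, 10 had a wider peak at 72 h than in naive cells (beside 33.1% of all such regions). By locus, this held for all 5 at Il10, Il24, Il22 and the Csf2 and Il3 locus, 0 of 2 at Il9 and 5 of 14 at Tnf and Lta. In the regions from 54214368 to 54215287 (Csf2 and Il3) and from 35218689 to 35219198 (Tnf and Lta), the naive and 72 h peaks overlapped only in part. Their widths thus compare peaks at partly different positions. The region with the greatest relative difference was that upstream of Il3, from 139 to 672 bp. The median width over the 21 was 357 bp in naive cells, 262 bp at 48 h and 359 bp at 72 h, and over all constant regions 506, 337 and 438 bp. Peak width depends on read depth, which is unknown here.

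**Figure D4:**
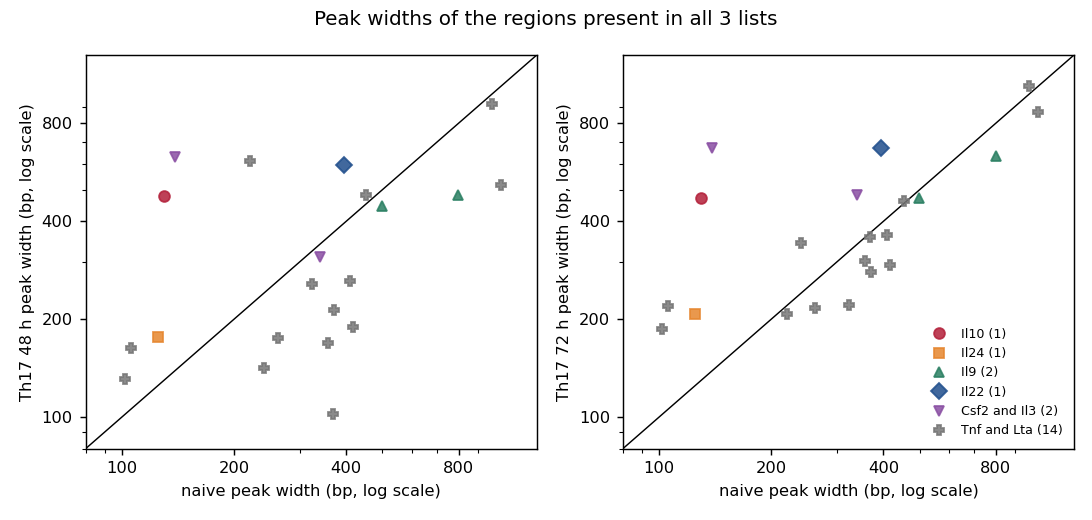
Each mark is 1 of the 21 regions present in all 3 lists, with its naive peak width on the horizontal axis and its width at 48 h (left) or 72 h (right) on the vertical axis, all in bp on log scales; the line marks equal widths and numbers in the key count regions per locus. The Il10 region (130, 479 and 470 bp) and 1 Csf2 and Il3 region (139, 630 and 672 bp) lie farthest above the line, and most Tnf and Lta regions lie on or below it.

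By presence, 21 of the 78 regions (26.9%, 95% interval 17.5 to 38.2%) were in all 3 lists, beside 25.6% of all regions. Another 14 (17.9%, 10.2 to 28.3%) were in naive cells only, beside 28.8%, 13 (16.7%, 9.18 to 26.8%) were in the culture lists alone at both times, beside 13.1%, and 14 (17.9%, 10.2 to 28.3%) were restricted to 72 h, beside 18.3%. Of these intervals, only that of the naive-only share did not reach the share over all regions, with an upper limit of 28.3% against 28.8%. The intervals cover counting error only, and regions of the same locus are not independent. Several shares were also compared without correction for their number, so this small gap is not taken as a resolved difference. Il10 held 7 of the 13 regions shared by 48 h and 72 h, and Tnf and Lta held 14 of the 21 constant and 7 of the 14 naive-only regions. The remaining 16 regions comprised 9 found in the naive and 72 h lists, 3 in the naive and 48 h lists and 4 in the 48 h list alone.

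**Figure D5:**
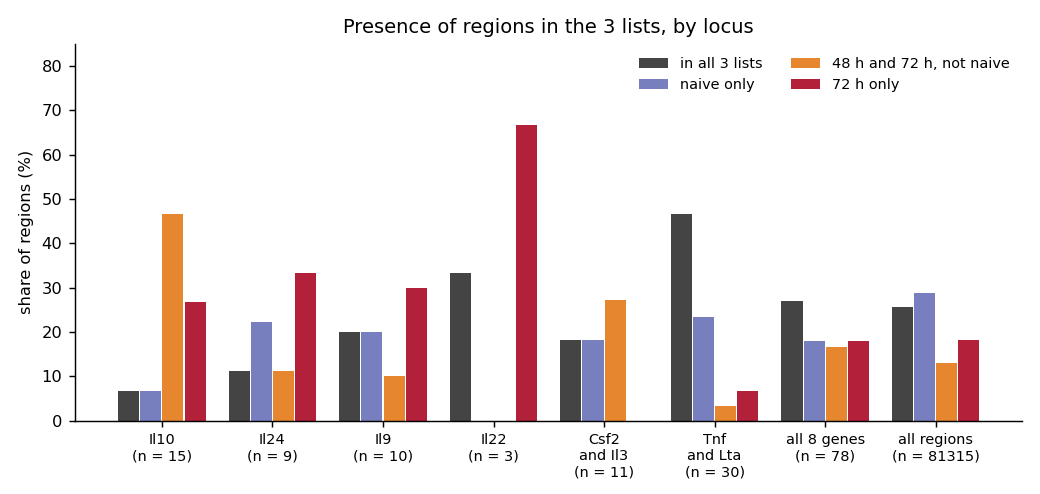
Bars give the percentage of regions (vertical axis) in 4 presence classes for each locus, for the 8 genes together and for all 81315 regions, with the number of regions under each name. Within its own locus, the class of both culture times without naive cells is the tallest at Il10 (7 of 15 regions), that of all 3 lists at Tnf and Lta (14 of 30) and that of 72 h alone at Il22, which has 3 regions in all.

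Between 48 h and 72 h, 23 of 64 regions at the 8 genes were gained (35.9%, 24.3 to 48.9%), beside 35.3% of all regions, and 7 were lost (10.9%, 4.51 to 21.2%), beside 10.3%. The 48 h list is the shortest, with 40624 peaks against 53926 at 72 h. The gains were spread over the loci, with 4 each at Il10, Il24 and Il9, 2 at Il22, 2 at Csf2 and Il3 and 7 at Tnf and Lta. Of those at Tnf and Lta, 5 were regions that had also been in the naive list. With equal numbers of peaks per list, 15 regions were gained and 10 lost between these times. That setting removes 72 h peaks and no 48 h peaks, so it lowers gains and adds losses by construction.

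The 16 receptor genes of the 8 cytokines lost regions at shares near those of all regions. At 48 h, 73 were lost (47.7%, beside 43.7% of all regions) and 15 gained (9.80%, beside 21.9%). At 72 h, 60 were lost (33.9%, beside 33.0%) and 39 gained (22.0%, beside 33.0%). At 48 h, 2 of the 16 genes had more regions than in naive cells and 13 fewer, with a median net change of -3; at 72 h, 7 had more and 8 fewer, with a median of -1. Over all protein-coding genes, 17.7% had more and 51.5% had fewer at 48 h. At 72 h, 33.7% of them had more and 64.2% had as many or more. Among the largest differences at 72 h, Il22ra2, which encodes the soluble IL-22 binding protein, went from 11 to 2 and 3 regions, Il10ra, the ligand-binding chain for IL-10, from 14 to 5 and 7, and Ltbr, the lymphotoxin-β receptor, from 13 to 3 and 6. Csf2rb, the common β chain of the GM-CSF and IL-3 receptors, went from 0 to 3 and 5. The neighbouring Csf2rb2, the IL-3 receptor β chain, whose window overlaps that of Csf2rb, went from 3 to 5 and 8. Csf2rb and Csf2rb2 were the 2 genes with more regions at 48 h, and they are not separate observations.

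At 28 other effector cytokine genes, 74 regions were gained (30.1%) and 82 lost (33.3%) at 48 h, beside 21.9% and 43.7% of all regions. At 72 h, 108 were gained (38.6%) and 65 lost (23.2%), beside 33.0% each. Of the 28 genes, 16 had more regions at 48 h than in naive cells, 9 fewer and 3 the same number. Of all protein-coding genes, 17.7% had more and 51.5% had fewer. The median net change of the 28 was 1. At 72 h, 19 had more and 9 fewer, beside 33.7% with more and 64.2% with as many or more, and the median was 2.5. Il17a, a signature Th17 cytokine, had 0, 6 and 11 regions and its neighbour and relative Il17f 2, 9 and 13. The chemokine genes Ccl5 and Ccl20 had 0, 3 and 6 and 1, 4 and 7, while Fasl, a death ligand, had 17, 8 and 11. Ltb is in this list and its window overlaps those of Tnf and Lta. Neighbours within the list, such as Il17a and Il17f or Ccl3 and Ccl4, also have overlapping windows, so the counts of genes are not counts of separate observations.

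At 19 genes of transcription factors known to act on these cytokines in T cells, 87 regions were gained (30.5%) and 108 lost (37.9%) at 48 h, beside 21.9% and 43.7% of all regions. At 72 h, 143 were gained (41.9%) and 97 lost (28.4%), beside 33.0% each. More regions than in naive cells were counted at 8 of the 19 genes at 48 h and 14 at 72 h, beside 17.7% and 33.7% of all protein-coding genes, with a median net change of -1 and 3. Maf, a factor that promotes Il10 in helper T cells, went from 1 to 4 and 6 regions and Nfkb1, an NF-κB subunit, from 19 to 21 and 30. Rora, which encodes a Th17 factor of the ROR family, went from 19 to 27 and 29. The NFAT genes Nfatc1 and Nfatc2 differed, with 26, 10 and 14 regions at the first and 15, 13 and 22 at the second. These lists are described by their counts, with no test, and neighbouring genes that share regions are each counted.

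The cell types named in the labels were checked with marker genes in the same windows. The 6 T cell markers with an entry in the gene table had regions in every list, with totals of 66, 49 and 54. At 72 h, 4 of the 6 had fewer than in naive cells, while 64.2% of all protein-coding genes had as many or more. Cd3e, Cd3d and Cd3g, whose windows overlap, are among the 4. The 6 Th17 markers each had more regions at 72 h than in naive cells, beside 33.7% of all protein-coding genes, with a list total of 29, 45 and 68. At 48 h, 5 of the 6 had more, beside 17.7%, and Il23r had fewer (16, 11 and 18 regions in the 3 lists). Windows of Il17a and Il17f overlap. The 6 naive T cell markers had fewer at 48 h and 72 h, with totals of 195, 86 and 112. Over all protein-coding genes, 51.5% had fewer at 48 h and 64.2% had as many or more at 72 h. Totals for other cells were 27, 24 and 39 for B cells, 25, 17 and 19 for myeloid cells, 14, 3 and 9 for mast cells and basophils, 38, 23 and 30 for CD8 and NK cells and 6, 5 and 7 for innate lymphoid and γδ T cells. Single markers went both ways: Fcer1a had 0 regions in every list, and Lyz2 (2, 1 and 0) and Cpa3 (7, 1 and 0) had 0 at 72 h. Kit had 0, 1 and 6 regions, Mcpt8 0, 0 and 1, Csf1r 2, 4 and 4 and Ebf1 6, 10 and 19. The part of other cells in the counts above was not tested.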

How the data were processed

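ATAC-seq peak lists of naive, Th17 48 h and Th17 72 h cells were used, 1 per condition with 2 libraries each. Alignment and peak calling were done by the authors; tools in the submitters' processing notes were MACS2 2.2.6, SAMtools 1.9, Bowtie2 2.3.4.1 and deepTools, with the build mm10 (GRCm38). Pooling of replicates, calling threshold, duplicate handling and any Tn5 shift were not given in the sources used here. Deposited by the authors were peak positions and, for 48 h and 72 h, a whole-number score of unstated scale, from 30 upward; read depth is unknown. One line of the naive list that holds no values was skipped. Naive, 48 h and 72 h lists held 53259, 40624 and 53926 peaks.

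Starts were converted to 1-based positions. Peaks sharing at least 1 bp were merged, and regions were assigned to genes of RefSeq GRCm38.p6 with 50 kb flanks (Python 3.11.15, pandas 2.3.3, scipy 1.17.1). Distances run between nearest ends. Where a list had several peaks in a region, the widest and the highest score were used. Merging and assignment were tested on simulated data. The members and lists were chosen with earlier results of these data known. Regions were given by position when in or within 1 kb of a member, shared by 48 h and 72 h only, in all 3 lists, or of highest score or naive width in their locus; further ones were chosen after their values were seen. List examples were those with the largest net change at 72 h; Csf2rb, Csf2rb2, Ltb, Maf and the single markers of other cells were chosen after their values were seen. Alternatives varied flank, overlap, width, number of peaks and score.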

Additional observations from a re-analysis of the deposited data

How the results depend on the processing

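Counts at the 8 genes followed the window and the peaks admitted. With flanks of 10 kb, 4 regions were gained and 7 lost at 48 h (net -3), 8 gained and 5 lost at 72 h (net 3), and 7 gained and 1 lost between 48 h and 72 h (net 6). With flanks of 100 kb, 26 were gained and 46 lost at 48 h (net -20), 35 were lost at 72 h (net 2), and 36 were gained and 14 lost between the times. With peaks of at least the median width of their list, 11 were gained and 11 lost at 48 h (net 0) and 7 lost at 72 h. When each list was reduced to its 40624 widest peaks, 15 were lost at 48 h (net 8, reversed from -6), 9 were lost at 72 h, and 15 were gained between the times (net 5). The 48 h list holds 40624 peaks, so this setting removes naive and 72 h peaks only. By construction it lowers losses and adds gains from naive cells to 48 h, and does the opposite between the times. With 48 h and 72 h peaks limited to scores at or above the median of their list, 8 were gained at 48 h (net -26), 9 gained and 30 lost at 72 h (net -21, reversed from 10), and 8 gained and 3 lost between the times (net 5); this setting removes cultured peaks only, so it lowers gains and adds losses by construction. Without the Tnf and Lta locus, chosen after seeing the data, 11 were lost at 48 h (net 4, reversed) and 10 at 72 h, and the net between the times was 10. Requiring an overlap of 0.5 of the narrower peak kept the 9 counts and nets within 1.5 times. Of 162 recomputed values for single genes, 17 had the opposite sign. The 162 include the setting without the Tnf and Lta locus, in which the values of the other genes equal the main ones by construction. With 100 kb flanks these were Csf2 between the times (2), Il10 at 48 h (-1) and Il3 at 48 h (2) and 72 h (3). With median width they were Il24 (1) and Il3 (2) at 48 h and Il3 (2) at 72 h. With equal numbers of peaks they were Il10 between the times (-2), Il24 (1) and Il3 (1) at 48 h and Tnf (1) and Lta (1) at 72 h. With the score limit they were Csf2 at 48 h (-1) and 72 h (-2), Il10 at 72 h (-1) and between the times (-2) and Il9 at 72 h (-1). Except as said, the cause was not tested. No paired analysis was possible because each condition has 1 peak list. Depth is unknown, so a region absent from a list may have been missed there.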

Other observations

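The remaining genes of the IL-10 family on chromosome 1, Il20 and Il19, lie between Il24 and Il10. Il20 had 3 regions in naive cells, 1 at 48 h and 5 at 72 h, and Il19 had 2, 3 and 6. Il19, Il20, Il24 and Il22 each had more regions at 72 h than in naive cells, beside 33.7% of all protein-coding genes. At 48 h, 1 of these 4 genes had more, 2 had fewer and 1 had the same number, beside 17.7% with more and 51.5% with fewer. Windows of the neighbours on chromosome 1 share regions, so their counts are not separate observations. The 32433 bp between the Il24 and Il10 windows, from 130937412 to 130969844, held 0 regions.

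Peak names carry running numbers. Within the windows of Il10, Il24, Il9 and Il22 the numbers of all 3 lists ran without a gap. At Csf2 and Il3 the naive and 48 h numbers each skipped 1 and the 72 h numbers skipped 3, and at Tnf and Lta 0 were skipped in naive cells, 3 at 48 h and 1 at 72 h. Their part in the counts was not tested.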
